A study of Homo sapiens with 12 samples.

Results

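The genes described here encode the proteins that license replication origins, fire them and copy DNA at the fork, with the transcription factors E2F1 and E2F2. They were taken as 51 listed genes whose deposited values reached at least 0.5 CPM (reads of a gene for every 1000000 reads of the library) in at least 3 libraries. Of the 51, 50 could be set against that rule, and all 50 met it. UHRF1, a reader of methylated DNA at the fork, was not analysed here, so its level is not known. The genes described are 50 of 28576 genes listed and of 18674 genes that met the same rule.

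All libraries are poly(A) RNA from SHEP cells, a human neuroblastoma line, and all carry a MYCN-ER fusion, which 4-hydroxytamoxifen (OHT) activates, and a short hairpin RNA against TCEAL1, which doxycycline (Dox) induces. The 12 libraries form 4 groups of 3: OHT_Dox (200 nM OHT and 1 µg/ml Dox), OHT (200 nM OHT only), Dox (1 µg/ml Dox only) and Ctrl (neither compound). Every group thus holds both constructs, and neither OHT nor Dox was tested in cells that lack them. The labels give replicate numbers but no treatment times, and nothing in them tells if these came from different cultures, so a p-value here covers only library-to-library spread, which may be technical. Each library held between 44466458 and 57694970 reads.

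TCEAL1, the target of the hairpin, was at 2.27 ± 0.468 CPM in OHT_Dox, against 8.99 ± 0.760 CPM in OHT (mean ± SD, n = 3 each). With no OHT it was at 2.63 ± 0.102 CPM in Dox, against 9.84 ± 0.798 CPM in Ctrl. MYCN reads, which can come from the fusion or the endogenous gene, were at 425 ± 47.4 CPM in OHT_Dox, 538 ± 25.4 CPM in Dox, 536 ± 94.4 CPM in OHT and 496 ± 69.4 CPM in Ctrl. MYCN was lower in OHT_Dox than in Dox (limma log2 fold change ± SE -0.34 ± 0.10, adjusted p = 0.0191), a call that was lost with DESeq2 (adjusted p = 0.0866) and without OHT_Dox 2 or Dox 3 (adjusted p between 0.0682 and 0.105), and its part in the results was not tested. The label neuroblastoma was set against markers of its cell states: 8 of 8 mesenchymal markers were present, with summed levels between 3852 and 5428 CPM. Of 8 adrenergic markers, 7 were listed, of which 3 averaged at least 0.5 CPM. Of 5 epithelial markers 4 were listed and 3 averaged at least 0.5 CPM, and they summed to between 831 and 1448 CPM, more than the adrenergic markers. Nearly all of that sum was the keratins KRT8 (471 CPM on average over all libraries) and KRT18 (633 CPM), while the defining epithelial markers EPCAM and CDH1 averaged 0.572 and 0.353 CPM. Of the haematopoietic markers 0 of 3 listed, and of the endothelial markers 0 of 3 listed, averaged 0.5 CPM.

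DNA is copied once per cell cycle because loading and activation of the helicase are kept apart in time. In G1 the origin recognition complex, CDC6 and CDT1 load the MCM2-7 helicase on DNA, and geminin (GMNN) blocks CDT1 once S phase has begun. At the start of S phase the CDC7-DBF4 kinase and cyclin-dependent kinases bring CDC45 and the GINS complex to MCM2-7, and polymerases alpha, delta and epsilon then follow the opened fork. Many of these genes are transcribed at the G1 to S boundary by E2F factors, and MYC proteins are known to push cells into the cycle.

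The promoters hold letters that E2F factors are known to bind more often than promoters do in general. Of the 50 genes, 43 matched a RefSeq promoter table (GRCh38.p14), with 53 windows that run from 250 bases before a transcript's start to 50 bases after it. The forms TTTCGCGC, TTTGGCGC, TTTCCCGC and TTTGGCGG, on either strand, occurred in 26 of the 53 windows (49.1%), against 3.35% of all 35116 windows and 4.83% of the 16575 windows of genes that met the 0.5 CPM rule. CACGTG, the E-box that MYC proteins bind, occurred in 7 of the 53 (13.2%), against 7.26% of all windows and 9.03% of those of expressed genes. CCAAT was in 29 of the 53 (54.7%), against 34.6% of all windows. Matches of different kinds shared a base in 1 member window, that of MCM7, where a CCAAT begins on the last base of the E2F form, and CACGTG shared a base with neither of the others. The lines below show 24 bases around an E2F form for members that are described below as lower in both OHT comparisons and for MCM2-7 genes, where a form was found, read 5′ to 3′ along the strand of the match, with the 8-base form in capitals.
CDC6: cattcggaTTTGGCGCgagcgcgg
GMNN: gggtcggtTTTGGCGCgctctcac
MCM2: gaaccactTTTCGCGCgaaacctg
MCM3: tcggaagtTTTCGCGCcggggtgg
MCM6: gctggagaTTTCGCGCcaaacctg
MCM7: gggcgacgTTTCGCGCcaatttcg
MCM10: gttggaatTTTGGCGGgttcagct
GINS1: ctccgcgcTTTGGCGCcgaacaaa
POLA2: acaaaccaTTTGGCGGgtttttcc
CLSPN: gttcttgcTTTCCCGCccagccag
E2F1: aaaaaggaTTTGGCGCgtaaaagt

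These sites lie at chr17:40287878-40287901 for CDC6 (plus strand), chr6:24775325-24775348 for GMNN (plus strand), chr3:127598405-127598428 for MCM2 (plus strand), chr6:52284731-52284754 for MCM3 (minus strand), chr2:135876514-135876537 for MCM6 (plus strand), chr7:100101391-100101414 for MCM7 (minus strand), chr10:13161555-13161578 for MCM10 (plus strand), chr20:25407670-25407693 for GINS1 (minus strand), chr11:65261930-65261953 for POLA2 (plus strand), chr1:35769968-35769991 for CLSPN (plus strand) and chr20:33686390-33686413 for E2F1 (minus strand). A match is a run of letters and says nothing of binding in SHEP cells.

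At their usual level the 50 genes were well expressed. Averaged over the 12 libraries the median gene stood at 71.4 CPM, against 19.2 CPM for the median of all genes that met the rule. POLE2, a subunit of polymerase epsilon, was lowest at 28.1 CPM, with at least 1157 reads in each library, and MCM4 was highest at 445 CPM, with up to 25795 reads. Per kilobase of exon the order differed, from 6.50 CPM per kb for ORC4 to 132 CPM per kb for PCNA, the sliding clamp that holds polymerases on DNA. The 6 MCM2-7 genes, whose proteins form a ring with 1 copy of each, stood per kilobase at 96.4 (MCM7), 66.6 (MCM3), 62.8 (MCM4), 50.02 (MCM2), 44.4 (MCM6) and 28.1 (MCM5) CPM per kb in Ctrl. The length used merges the exons of all annotated transcripts of a gene, with 7338 bases for MCM5 and 8915 bases for ORC4. It can exceed the length of the transcript that is made, so the low places of MCM5 and ORC4 may come from the length.

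With OHT, replication genes were lower far more often than higher, by small amounts. Of the 50, 21 were lower and 1 was higher in OHT than in Ctrl (limma on log2(CPM + 0.5), Benjamini-Hochberg adjusted p under 0.05 over all 18674 genes), where 8.79% of all genes were lower and 12.6% higher. With the hairpin induced, 19 were lower and 0 higher in OHT_Dox than in Dox, where 14.5% of all genes were lower and 11.5% higher. edgeR and DESeq2 also called 0 of the 50 higher there, and the number higher at an unadjusted p under 0.05 was 0 by limma, 2 by edgeR and 3 by DESeq2. The median log2 fold change of the 50 was -0.11 in OHT against Ctrl (all genes -0.01) and -0.13 in OHT_Dox against Dox (all genes -0.03). These comparisons share no library, but they share an estimate of spread from the same fit, so their calls are not fully independent. In both, 13 genes were lower, 61.9% of the 21 and 68.4% of the 19. Over all genes, 911 were lower in both, 55.5% of the 1641 lower in OHT against Ctrl and 33.6% of the 2709 lower in OHT_Dox against Dox. The counts given below for each step are to be read beside the same shares of all genes in each comparison.

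Taken as a sum over the 50 genes, 5063, 5099 and 5137 CPM were found in OHT_Dox, against 5471, 5522 and 5490 CPM in Dox. The sum was 5064, 5166 and 5168 CPM in OHT, against 5522, 5461 and 5502 CPM in Ctrl. Each library with OHT was thus below each library without it. CPM is a share of a library's reads, so a change in total RNA per cell is not seen, and in bulk RNA fewer cells in S phase and less RNA per cell cannot be told apart. The 7 listed adrenergic markers summed to 79.97 to 84.6 CPM in OHT_Dox, against 67.7 to 73.9 CPM in Dox, and to 74.7 to 84.0 CPM in OHT, against 67.7 to 72.0 CPM in Ctrl. Most of that sum was HAND2, which averaged 63.1 CPM in OHT_Dox, 49.2 CPM in Dox, 59.8 CPM in OHT and 50.5 CPM in Ctrl. GATA3 averaged 8.55 CPM in OHT_Dox, 9.51 CPM in Dox, 9.01 CPM in OHT and 9.18 CPM in Ctrl. ISL1 averaged 9.74, 11.8, 9.82 and 9.09 CPM in the same order, so the list did not rise as a whole. The 4 listed epithelial markers summed to 831 to 954 CPM in OHT_Dox, against 919.6 to 941 CPM in Dox, which overlap, and to 1191 to 1249 CPM in OHT, against 1321 to 1448 CPM in Ctrl, which do not. The mesenchymal sums overlapped, at 3852 to 4176 CPM in OHT_Dox, against 4010 to 4240 CPM in Dox, and at 4730.4 to 5109 CPM in OHT, against 5072 to 5428 CPM in Ctrl. Their genes did not all move alike. PRRX1 averaged 93.4 CPM in OHT_Dox against 71.6 CPM in Dox, and 107 CPM in OHT against 66.5 CPM in Ctrl. COL1A1 averaged 499 CPM in OHT_Dox against 563 CPM in Dox, and 823 CPM in OHT against 924 CPM in Ctrl. The part of these markers in the results was not tested. The count in OHT against Ctrl was 14 in place of 22 without OHT replicate 1 and without OHT replicate 3, and 10 of the 22 calls and 12 of the 19 held in each of 23 alternative fits.

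**Figure D1:**
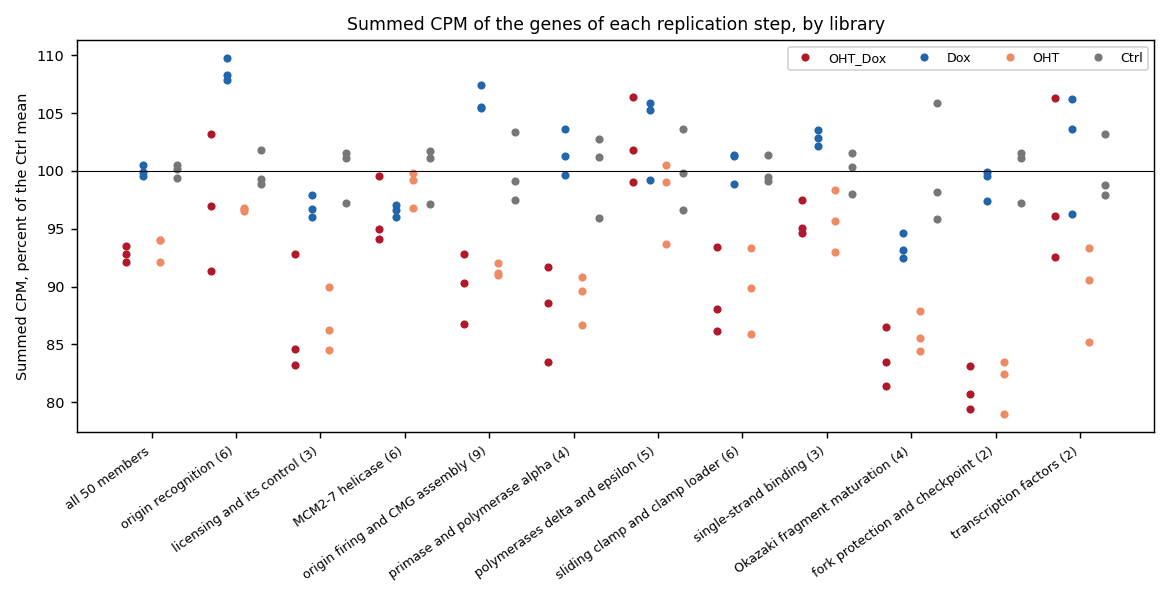
Summed CPM of all 50 replication genes and of the genes of each step (number of genes in brackets), as percent of the mean of the 3 Ctrl libraries (vertical axis, which does not start at 0), with a point for each library of OHT_Dox, Dox, OHT and Ctrl. For all 50 genes the 6 libraries with OHT (5063 to 5168 CPM) lie below the 6 without it (5461 to 5522 CPM), while libraries with and without OHT overlap for origin recognition, the MCM2-7 helicase, polymerases delta and epsilon, single-strand binding and the transcription factors.

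**Figure D2:**
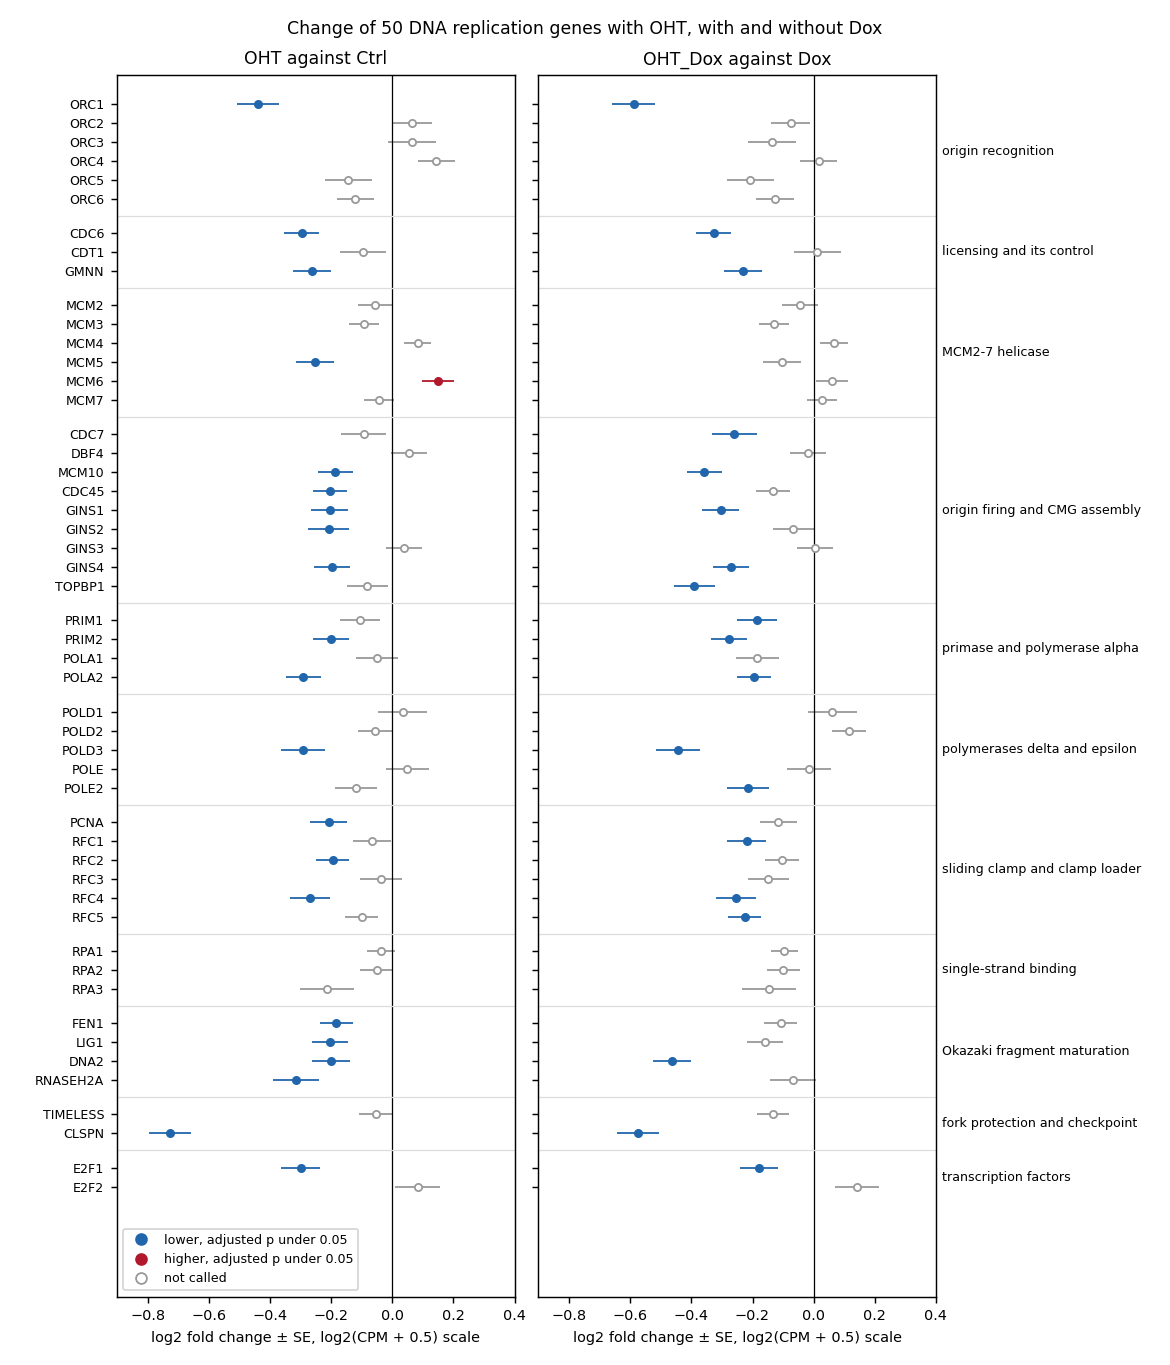
Log2 fold change ± SE (limma, log2(CPM + 0.5) scale) of each of the 50 genes in OHT against Ctrl (left) and OHT_Dox against Dox (right), ordered by step; filled points passed an adjusted p of 0.05. Most points lie left of 0, with CLSPN at -0.73 and -0.58 and ORC1 at -0.44 and -0.59 the lowest called values of the panels, and of the MCM2-7 genes MCM5 (-0.25) and MCM6 (0.15) are filled in the left panel and none in the right.

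Claspin (CLSPN), an adaptor that links stalled forks to the kinase CHK1 and helps forks move, changed most in OHT against Ctrl. It had 54.3, 52.6 and 53.6 CPM in OHT, against 85.6, 97.5 and 83.9 CPM in Ctrl, a log2 fold change ± SE of -0.73 ± 0.07, adjusted p = 2.69e-07. With Dox it had 58.5, 59.2 and 50.1 CPM in OHT_Dox, against 84.8, 82.2 and 83.2 CPM in Dox (-0.58 ± 0.07, adjusted p = 5.01e-06). The 6 libraries with OHT all lay below 60 CPM and the 6 without it all above 80 CPM. TIMELESS, which travels with the fork and stabilises it, had 126 ± 4.53 CPM in OHT and 131 ± 5.52 CPM in Ctrl, with a log2 fold change of -0.05 ± 0.05, adjusted p = 0.517. In OHT_Dox it had 122 ± 3.59 CPM and in Dox 134 ± 4.19 CPM (-0.13 ± 0.05, adjusted p = 0.074), so neither comparison called it. With the length and GC trend of each library removed it was lower in OHT_Dox than in Dox (-0.15, adjusted p = 0.0186).

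The promoter of CLSPN lies on the minus strand at chr1:35769929-35770228, and that of ORC1, the other gene with a change beyond -0.4 in both comparisons, on the minus strand at chr1:52404374-52404673 (GRCh38.p14, RefSeq). They are shown because these genes changed together and differ in the exact letters searched, and the pair was chosen with the values known. At its CCAAT match ORC1 reads ATTGGCGC, which differs from the form TTTGGCGC in the first letter only. Capitals mark a match to an E2F form or to CCAAT, both read here in reverse complement: CLSPN has 1 E2F form (GCGGGAAA) and 3 CCAAT, and ORC1 has 1 CCAAT and none of the 4 E2F forms in this window.
CLSPN: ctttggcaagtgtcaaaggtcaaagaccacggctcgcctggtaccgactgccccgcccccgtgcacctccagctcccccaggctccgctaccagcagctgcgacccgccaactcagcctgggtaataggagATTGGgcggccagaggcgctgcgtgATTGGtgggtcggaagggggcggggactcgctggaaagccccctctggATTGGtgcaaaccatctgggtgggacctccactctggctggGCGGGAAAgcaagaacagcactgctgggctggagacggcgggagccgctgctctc
ORC1: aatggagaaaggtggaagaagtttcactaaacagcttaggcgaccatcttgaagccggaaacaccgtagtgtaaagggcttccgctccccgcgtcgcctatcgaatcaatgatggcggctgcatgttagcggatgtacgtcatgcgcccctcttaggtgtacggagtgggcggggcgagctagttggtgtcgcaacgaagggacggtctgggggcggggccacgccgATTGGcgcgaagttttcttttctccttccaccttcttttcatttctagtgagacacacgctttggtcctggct

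Among the 6 subunits of the origin recognition complex, which marks origins, ORC1 alone was called, in both comparisons. ORC1 had 32.7, 34.4 and 37.1 CPM in OHT, against 48.0, 45.8 and 47.8 CPM in Ctrl (-0.44 ± 0.07, adjusted p = 0.000119). It had 30.0, 35.3 and 32.6 CPM in OHT_Dox, against 48.0, 49.0 and 50.8 CPM in Dox (-0.59 ± 0.07, adjusted p = 3.98e-06). All 6 OHT libraries lay below all 6 libraries without OHT. The other subunits had log2 fold changes between -0.14 (ORC5) and 0.14 (ORC4) in OHT against Ctrl and between -0.21 (ORC5) and 0.02 (ORC4) in OHT_Dox against Dox. ORC5 came closest to the threshold, with 29.1 ± 2.30 CPM in OHT_Dox and 33.7 ± 2.28 CPM in Dox (-0.21 ± 0.08, adjusted p = 0.0525). It was called without OHT_Dox 2, OHT 1, OHT 2 or Dox 3 (adjusted p between 0.0202 and 0.0496).

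CDC6, the ATPase that recruits the helicase to ORC, and GMNN were lower in both comparisons, and CDT1, the helicase loader that GMNN binds, was not called in either. CDC6 had 51.2, 52.0 and 49.1 CPM in OHT, against 63.8, 62.7 and 60.8 CPM in Ctrl (-0.30 ± 0.06, adjusted p = 0.000864). With Dox it had 49.4, 54.3 and 52.6 CPM in OHT_Dox, against 64.0, 67.0 and 65.2 CPM in Dox (-0.33 ± 0.06, adjusted p = 0.000293). In neither comparison did the libraries of CDC6 overlap. GMNN had 52.9, 58.0 and 55.0 CPM in OHT, against 62.6, 72.3 and 64.7 CPM in Ctrl (-0.26 ± 0.06, adjusted p = 0.00424). It had 56.1, 55.9 and 56.7 CPM in OHT_Dox, against 67.3, 65.0 and 66.0 CPM in Dox (-0.23 ± 0.06, adjusted p = 0.00863), again without overlap. This call of GMNN was lost without Dox 1 and OHT_Dox 3 together (adjusted p = 0.0569). CDT1 had 85.1 ± 3.08 CPM in OHT and 91.0 ± 5.98 CPM in Ctrl (-0.10 ± 0.08, adjusted p = 0.415), and 82.8 ± 11.2 CPM in OHT_Dox and 81.7 ± 2.29 CPM in Dox (0.01 ± 0.08, adjusted p = 0.933).

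The MCM2-7 helicase genes showed small differences, not all in 1 direction. In OHT against Ctrl, MCM5 was lower, MCM6 was higher and 4 were not called, and in OHT_Dox against Dox 0 of 6 were called, by limma, edgeR or DESeq2, with 1 (MCM3) at an unadjusted p under 0.05 by limma. MCM3 (-0.13 ± 0.05, adjusted p = 0.0599) was called lower in OHT_Dox than in Dox when only these groups were fitted (adjusted p = 0.0448) and with the length and GC trend removed (-0.15, adjusted p = 0.0203). MCM5 had 160.5, 176 and 183 CPM in OHT, against 199, 203 and 216 CPM in Ctrl (-0.25 ± 0.06, adjusted p = 0.00625). With Dox its values overlapped, at 170.4, 159 and 187 CPM in OHT_Dox and 186, 181 and 186 CPM in Dox (-0.10 ± 0.06, adjusted p = 0.25). MCM6 had 198, 210.5 and 199.7 CPM in OHT, against 191, 177 and 179.98 CPM in Ctrl (0.15 ± 0.05, adjusted p = 0.0436), and in this comparison its groups did not overlap. MCM6 had 179, 188 and 181 CPM in OHT_Dox, against 179.9, 178 and 168 CPM in Dox (0.06 ± 0.05, adjusted p = 0.444).

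The remaining helicase subunits, MCM2, MCM3, MCM4 and MCM7, had log2 fold changes between -0.09 and 0.08 in OHT against Ctrl and between -0.13 and 0.07 in OHT_Dox against Dox. MCM4, the most abundant by CPM, had 464 ± 4.31 CPM in OHT and 438 ± 7.45 CPM in Ctrl (0.08 ± 0.04, adjusted p = 0.203). The sum of the 6 genes was 1673 ± 51.2 CPM in OHT_Dox and 1678 ± 8.86 CPM in Dox, and 1714 ± 27.6 CPM in OHT and 1738 ± 42.8 CPM in Ctrl. The call of MCM6 was lost in 12 of 23 alternatives, among them edgeR (adjusted p = 0.0667) and TMM scaling (adjusted p = 0.0681). The fit of only OHT and Ctrl lost it too (adjusted p = 0.0988). So did the fits without OHT_Dox 1, OHT 1, OHT 2, OHT 3, Dox 1, Dox 2, Ctrl 2 or Ctrl 3 (adjusted p between 0.0538 and 0.146).

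Of the 9 genes that fire origins and build the CDC45-MCM-GINS helicase, 5 were lower in each comparison, and MCM10, GINS1 and GINS4 were lower in both. MCM10, which activates the assembled helicase, had 91.0, 92.4 and 94.5 CPM in OHT, against 114, 103 and 99.4 CPM in Ctrl (-0.19 ± 0.06, adjusted p = 0.0231). It had 92.6, 90.5 and 89.8 CPM in OHT_Dox, against 116, 120.1 and 114 CPM in Dox (-0.36 ± 0.06, adjusted p = 0.0001). GINS1, a GINS subunit, had 55.5, 52.4 and 56.2 CPM in OHT, against 65.4, 61.2 and 62.7 CPM in Ctrl (-0.20 ± 0.06, adjusted p = 0.0182). Neither gene's groups overlapped in OHT against Ctrl. GINS1 had 50.3, 51.1 and 47.9 CPM in OHT_Dox, against 58.4, 62.1 and 64.3 CPM in Dox (-0.30 ± 0.06, adjusted p = 0.000774). GINS4 had 60.1, 61.0 and 61.3 CPM in OHT, against 68.9, 65.5 and 75.2 CPM in Ctrl (-0.20 ± 0.06, adjusted p = 0.0215), and 56.6, 57.4 and 54.9 CPM in OHT_Dox, against 70.4, 66.4 and 67.4 CPM in Dox (-0.27 ± 0.06, adjusted p = 0.00194). GINS4 shares 21.17% of its exon bases with an antisense gene of similar level (49.98 CPM), so its reads are uncertain where the counting did not use strand.

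CDC45, which completes the helicase with GINS, and GINS2 were lower in OHT than in Ctrl (-0.20 ± 0.06, adjusted p = 0.0117, and -0.21 ± 0.07, adjusted p = 0.0316) and were not called in OHT_Dox against Dox (-0.13 and -0.07). CDC7, the kinase that phosphorylates MCM proteins, and TOPBP1, which brings CDC45 to origins and activates the kinase ATR, were lower in OHT_Dox than in Dox. CDC7 had 34.98 ± 3.09 CPM in OHT_Dox and 41.9 ± 0.786 CPM in Dox (-0.26 ± 0.07, adjusted p = 0.0125). TOPBP1 had 105, 116 and 97.5 CPM in OHT_Dox, against 138, 143 and 136 CPM in Dox (-0.39 ± 0.07, adjusted p = 0.000237). Each OHT_Dox library of TOPBP1 lay below each Dox library. TOPBP1 had 109, 107 and 109 CPM in OHT, against 127, 112 and 106 CPM in Ctrl (-0.08 ± 0.07, adjusted p = 0.429), and neither it nor CDC7 (-0.09) was called there. DBF4, the activator of CDC7, and GINS3 had log2 fold changes between -0.02 and 0.06 in these comparisons and were not called.

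Among the firing genes, the calls in OHT against Ctrl were lost for MCM10 without OHT 1, OHT 2 or Ctrl 1 (adjusted p between 0.0526 and 0.106), for CDC45 without OHT 3 (adjusted p = 0.0514), for GINS1 without OHT 2 or Ctrl 1 (adjusted p between 0.0542 and 0.0749), for GINS2 without OHT 1, OHT 3, Ctrl 2 or Ctrl 3 (adjusted p between 0.087 and 0.148) and for GINS4 without OHT 1, OHT 3 or Ctrl 3 (adjusted p between 0.0538 and 0.124). When only OHT and Ctrl were fitted, MCM10, GINS2 and GINS4 lost that call as well (adjusted p between 0.057 and 0.066). With the length and GC trend removed CDC45 was lower in OHT_Dox than in Dox as well (-0.15, adjusted p = 0.0351). The call of CDC7 in OHT_Dox against Dox was lost without OHT_Dox 3 (adjusted p = 0.0765) and after the same step (-0.15, adjusted p = 0.0707). Without Dox 1 and OHT_Dox 3 together CDC7 was not called either (adjusted p = 0.17).

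Primase and polymerase alpha lay the RNA-DNA primers that start each new strand. PRIM2, the large primase subunit, and POLA2, the accessory subunit of polymerase alpha, were lower in both comparisons. PRIM2 had 50.4, 50.6 and 47.2 CPM in OHT, against 55.3, 55.1 and 60.3 CPM in Ctrl (-0.20 ± 0.06, adjusted p = 0.019), and 48.7, 49.9 and 47.5 CPM in OHT_Dox, against 60.1, 58.0 and 59.1 CPM in Dox (-0.28 ± 0.06, adjusted p = 0.00166). POLA2 had 62.3, 66.6 and 64.0 CPM in OHT, against 81.3, 74.0 and 81.0 CPM in Ctrl (-0.29 ± 0.06, adjusted p = 0.000912), and 69.3, 68.3 and 66.5 CPM in OHT_Dox, against 76.1, 80.2 and 77.6 CPM in Dox (-0.19 ± 0.06, adjusted p = 0.0149). No OHT library reached the level of a library without OHT for either gene. PRIM1, the catalytic primase subunit, had 57.8, 63.3 and 54.2 CPM in OHT_Dox, against 70.7, 64.1 and 64.6 CPM in Dox (-0.19 ± 0.07, adjusted p = 0.0445), and was not called in OHT against Ctrl (-0.10). POLA1, the catalytic subunit of polymerase alpha, was called in neither (-0.05 and -0.18), but was called in OHT_Dox against Dox when only these groups were fitted (adjusted p = 0.0484) and without OHT_Dox 2 or Ctrl 1 (adjusted p between 0.0295 and 0.036). The call of PRIM1 was lost in 15 of 23 alternatives, with edgeR, DESeq2 and TMM scaling among them. The fits without OHT_Dox 1, OHT_Dox 3, OHT 3, Dox 1, Dox 2, Dox 3 or Ctrl 3 lost it too (adjusted p between 0.0505 and 0.193). Its adjusted p was 0.296 with the length and GC trend removed, and 0.467 without Dox 1 and OHT_Dox 3 together. When only OHT and Ctrl were fitted, the call of PRIM2 in OHT against Ctrl was lost (adjusted p = 0.0545). The call of PRIM2 there was also lost without OHT 3 or Ctrl 3 (adjusted p between 0.0978 and 0.0994). That of POLA2 in OHT_Dox against Dox was lost without Dox 2 (adjusted p = 0.0768) and without Dox 1 and OHT_Dox 3 together (adjusted p = 0.0668). POLA2 shares 35.14% of its exon bases with another gene on its strand.

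Of the 5 genes of the replicative polymerases, POLD3, an accessory subunit of polymerase delta, was lower in both comparisons. It had 45.8, 40.2 and 42.9 CPM in OHT, against 54.7, 48.6 and 54.8 CPM in Ctrl (-0.29 ± 0.07, adjusted p = 0.00605). With Dox it had 44.3, 45.5 and 39.8 CPM in OHT_Dox, against 56.0, 61.7 and 59.1 CPM in Dox (-0.45 ± 0.07, adjusted p = 0.000128). In neither comparison did the groups overlap. The catalytic subunits were not called: POLD1, of polymerase delta, had log2 fold changes of 0.03 ± 0.08 in OHT against Ctrl and 0.06 ± 0.08 in OHT_Dox against Dox, and POLE, of polymerase epsilon, of 0.05 ± 0.07 and -0.01 ± 0.07. POLD2, the partner subunit of POLD1, stood at -0.06 and 0.12 and was not called. POLE2 was lower in OHT_Dox than in Dox, with 25.6, 28.7 and 26.0 CPM in OHT_Dox, against 30.1, 31.5 and 31.8 CPM in Dox (-0.21 ± 0.07, adjusted p = 0.0267). That call was lost without OHT_Dox 1, OHT_Dox 3, Dox 2 or Dox 3 (adjusted p between 0.08 and 0.116) and with edgeR (adjusted p = 0.0539). It was also lost after the length and GC trend was removed (-0.15, adjusted p = 0.0727). Without Dox 1 and OHT_Dox 3 together POLE2 was not called either (adjusted p = 0.0915).

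PCNA encircles DNA and is loaded by the RFC complex, of which RFC1 is the large subunit. Of these 6 genes 3 were lower in each comparison, and RFC4 was lower in both. RFC4 had 77.1, 79.7 and 80.3 CPM in OHT, against 90.3, 102 and 94.3 CPM in Ctrl (-0.27 ± 0.07, adjusted p = 0.00535). It had 79.7, 84.3 and 74.2 CPM in OHT_Dox, against 87.3, 99.7 and 97.7 CPM in Dox (-0.26 ± 0.07, adjusted p = 0.00652), and the groups did not overlap in either comparison. RFC2, another small subunit, was lower in OHT, with 86.8, 95.1 and 92.5 CPM in OHT, against 102, 107 and 106 CPM in Ctrl (-0.19 ± 0.05, adjusted p = 0.0148). RFC5 had 99.5, 101 and 95.2 CPM in OHT_Dox, against 113, 116 and 117 CPM in Dox (-0.23 ± 0.05, adjusted p = 0.00389). RFC1 had 109.5, 119.9 and 107 CPM in OHT_Dox, against 139, 129 and 124 CPM in Dox (-0.22 ± 0.06, adjusted p = 0.0132). RFC1 and RFC5 were thus lower with OHT where Dox was present, and were not called without it (-0.07 and -0.10). PCNA had 187 ± 16.2 CPM in OHT and 215 ± 11.4 CPM in Ctrl (-0.21 ± 0.06, adjusted p = 0.0187), and 181 ± 7.50 CPM in OHT_Dox and 196 ± 1.75 CPM in Dox (-0.12 ± 0.06, adjusted p = 0.178). RFC3 was called in neither (-0.04 and -0.15), but was called in OHT_Dox against Dox without OHT_Dox 2 (adjusted p = 0.0249). The call of PCNA was lost without OHT 1, OHT 3 or Ctrl 2 (adjusted p between 0.0598 and 0.122). It was also lost when only OHT and Ctrl were fitted (adjusted p = 0.0544). That of RFC2 was lost without OHT 1 (adjusted p = 0.0866). That of RFC1 was lost without OHT_Dox 1, OHT_Dox 3 or Dox 1 (adjusted p between 0.0574 and 0.0803). Without Dox 1 and OHT_Dox 3 together RFC1 was not called either (adjusted p = 0.211). The same held after the length and GC trend was removed (-0.12, adjusted p = 0.0948).

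RPA1, RPA2 and RPA3 form the complex that coats single-stranded DNA, and 0 of the 3 was called in either comparison by limma, edgeR or DESeq2, with RPA3 at an unadjusted p under 0.05 by limma in OHT against Ctrl and RPA1 in OHT_Dox against Dox. RPA3, the smallest subunit, had 35.5, 42.3 and 39.2 CPM in OHT, against 40.9, 52.7 and 42.9 CPM in Ctrl (-0.21 ± 0.09, adjusted p = 0.0941). The fit without Ctrl 1 (adjusted p = 0.0295) did call it. In OHT_Dox against Dox the log2 fold changes of the 3 genes were -0.10 (RPA1), -0.10 (RPA2) and -0.15 (RPA3).

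All 4 genes that finish Okazaki fragments, the short pieces of the lagging strand, were lower in OHT than in Ctrl, and 1 of the 4, DNA2, was lower in OHT_Dox than in Dox. DNA2, a nuclease and helicase that trims long flaps, had 48.9, 47.8 and 46.2 CPM in OHT, against 57.9, 56.1 and 50.5 CPM in Ctrl (-0.20 ± 0.06, adjusted p = 0.0264). With Dox it had 46.8, 50.05 and 46.6 CPM in OHT_Dox, against 67.5, 65.0 and 65.8 CPM in Dox (-0.46 ± 0.06, adjusted p = 1.76e-05), with no overlap in either. RNASEH2A, a subunit of the enzyme that removes RNA from DNA, had 78.7, 82.1 and 76.1 CPM in OHT, against 90.4, 111 and 94.7 CPM in Ctrl (-0.31 ± 0.08, adjusted p = 0.00526), and 72.1, 69.4 and 84.3 CPM in OHT_Dox, against 78.2, 79.5 and 78.0 CPM in Dox (-0.07 ± 0.08, adjusted p = 0.573). FEN1, the flap nuclease, had 205, 215 and 214 CPM in OHT, against 236, 260.04 and 226 CPM in Ctrl (-0.18 ± 0.05, adjusted p = 0.0187). LIG1, the ligase that seals the fragments, had 74.8, 80.2 and 76.7 CPM in OHT, against 90.5, 84.8 and 91.6 CPM in Ctrl (-0.20 ± 0.06, adjusted p = 0.0182). In OHT_Dox against Dox FEN1 stood at -0.11 ± 0.05, adjusted p = 0.153 and LIG1 at -0.16 ± 0.06, adjusted p = 0.0508, so that neither was called. LIG1 was called there in 8 of 23 alternatives, among them the fit with the length and GC trend removed (-0.20, adjusted p = 0.00602), a pseudocount of 1 (adjusted p = 0.0498) and the fits without Dox 1, Ctrl 1 or Ctrl 2 (adjusted p between 0.0276 and 0.0473). In OHT against Ctrl the calls were lost for DNA2 without OHT 2, OHT 3, Ctrl 1 or Ctrl 2 (adjusted p between 0.0534 and 0.103), for FEN1 without OHT 1 or Ctrl 2 (adjusted p between 0.0784 and 0.0976) and for LIG1 without OHT 1, OHT 3 or Ctrl 3 (adjusted p between 0.059 and 0.0772). When only OHT and Ctrl were fitted, the calls of DNA2 (adjusted p = 0.0657) and FEN1 (adjusted p = 0.0622) were lost as well. RNASEH2A shares 30.81% of its exon bases with another gene on its strand.

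E2F1 and E2F2, activating E2F factors that drive genes of S phase, differed in their calls: E2F1 was lower in both comparisons and E2F2 was called in neither. E2F1 had 68.6, 62.0 and 65.3 CPM in OHT, against 77.0, 83.6 and 80.8 CPM in Ctrl (-0.30 ± 0.06, adjusted p = 0.00178), and 68.4, 66.7 and 76.2 CPM in OHT_Dox, against 76.4, 80.4 and 82.4 CPM in Dox (-0.18 ± 0.06, adjusted p = 0.0415). Its OHT libraries lay below those without OHT in both comparisons. E2F2 had 45.0 ± 1.96 CPM in OHT and 42.5 ± 2.49 CPM in Ctrl (0.08 ± 0.07, adjusted p = 0.463), and 50.5 ± 3.71 CPM in OHT_Dox and 45.7 ± 3.30 CPM in Dox (0.14 ± 0.07, adjusted p = 0.168). The call of E2F1 in OHT_Dox against Dox was lost in 9 of 23 alternatives, with edgeR (adjusted p = 0.122), DESeq2 (adjusted p = 0.0899) and TMM scaling among them, and the fits without OHT_Dox 1, OHT_Dox 2, OHT 3, Dox 2 or Dox 3 (adjusted p between 0.0554 and 0.145).

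**Figure D3:**
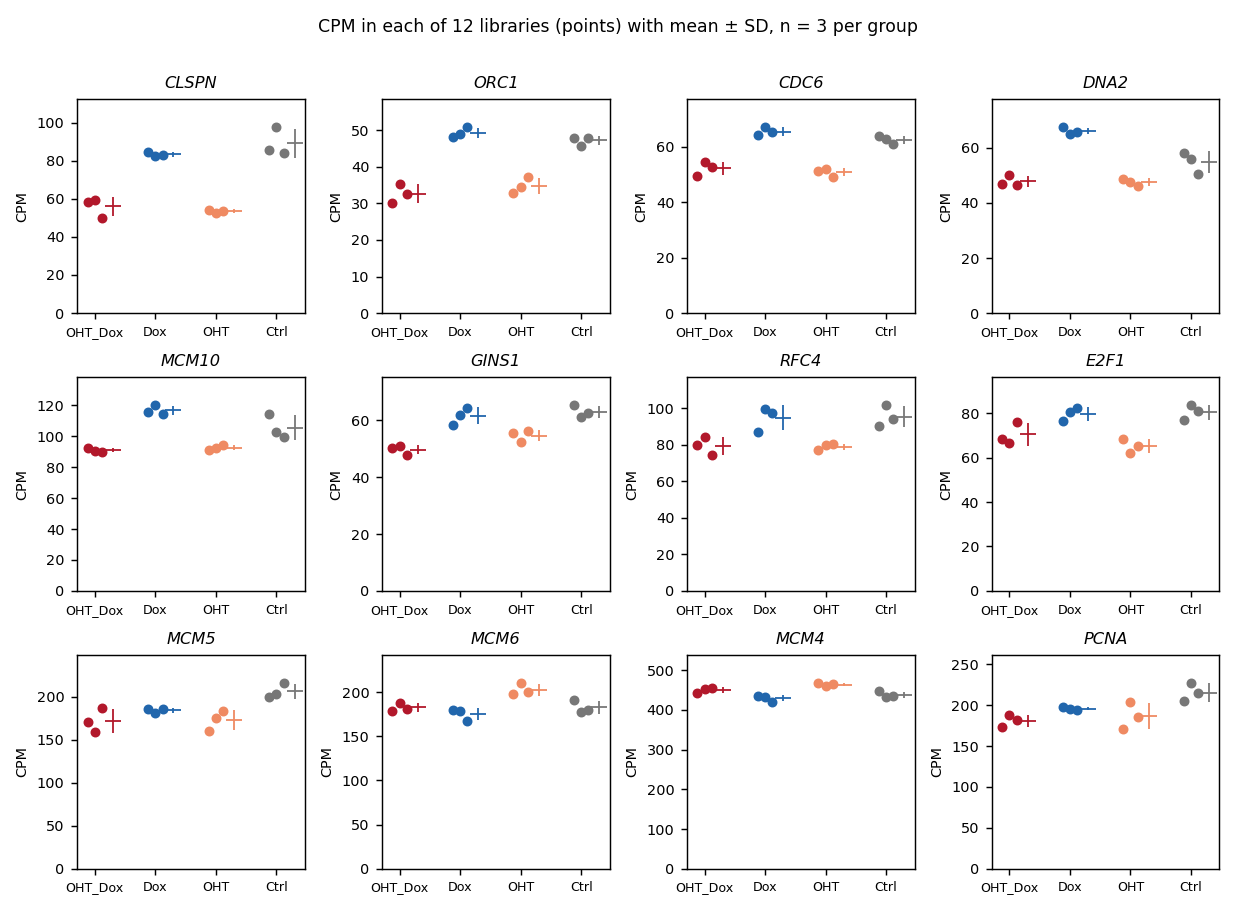
CPM in each library (points) with mean ± SD (n = 3, cross) of 12 genes named at their steps, in the groups OHT_Dox, Dox, OHT and Ctrl; each panel has its own vertical axis in CPM, from 0. CLSPN, ORC1 and CDC6 lie lower in both groups with OHT, DNA2 lies highest in Dox, and MCM6 and MCM4 lie no lower in the groups with OHT.

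Genes with an E2F form in their promoter were found among those that were lower and among those that were not. Of the 23 matched genes that were lower in either comparison, 15 had an E2F form (65.2%), and of the 20 that were lower in neither, 11 had one (55.0%). All 4 matched MCM2-7 genes (MCM2, MCM3, MCM6 and MCM7) had one, and 0 of these 4 was called lower in either comparison, although MCM3 was in the alternatives named above. CACGTG was in a window of 2 of the 23 (8.7%) and of 5 of the 20 (25.0%). Of the 11394 matched genes that met the 0.5 CPM rule, 6.59% had an E2F form and 12.2% had CACGTG. Whether the shares differ between the lower genes and the others was not tested.

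With the hairpin induced and no OHT, few replication genes changed. Of the 50, 3 were higher and 1 was lower in Dox than in Ctrl, where 5.68% of all genes were higher and 2.61% lower, so the counts lie near those of all genes. The median log2 fold change of the 50 was 0.04 (all genes 0.05). TOPBP1 had 138, 143 and 136 CPM in Dox, against 127, 112 and 106 CPM in Ctrl (0.28 ± 0.07, adjusted p = 0.0199). DNA2 had 67.5, 65.0 and 65.8 CPM in Dox, against 57.9, 56.1 and 50.5 CPM in Ctrl (0.27 ± 0.06, adjusted p = 0.0165). RFC5 had 113, 116 and 117 CPM in Dox, against 106, 98.0 and 101 CPM in Ctrl (0.18 ± 0.05, adjusted p = 0.0423). For these 3 each Dox library lay above each Ctrl library. RNASEH2A was the gene that was lower, with 78.2, 79.5 and 78.0 CPM in Dox, against 90.4, 111 and 94.7 CPM in Ctrl (-0.32 ± 0.08, adjusted p = 0.0178), without overlap. OHT_Dox against Dox uses the same Dox libraries with the opposite sign, so the higher Dox values of TOPBP1, DNA2 and RFC5 also enter the lower values given above for OHT_Dox.

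The log2 fold changes with Dox ran with the GC content of the transcripts. Over the 50 genes the log2 fold change in Dox against Ctrl had a Spearman correlation with GC percent of -0.6, and over 18673 genes it was -0.307, as a description across genes that share the same libraries. In OHT_Dox against Dox the correlation over the 50 was 0.448 (all genes 0.295), and in OHT against Ctrl it was -0.144 (all genes -0.016). Among single libraries, the deviation from the mean of all libraries correlated most with GC in OHT_Dox 3 (0.461) and Dox 1 (-0.348). Without these libraries limma kept 13 of the 19 calls in OHT_Dox against Dox. With the length and GC trend of each library removed, limma called 0 of the 50 higher (2.13% of all genes), with 4 at an unadjusted p under 0.05, and 1, RNASEH2A, lower (4.09% of all genes) in Dox than in Ctrl (-0.34, adjusted p = 0.0086), and TOPBP1 (0.16, adjusted p = 0.0726), DNA2 (0.15, adjusted p = 0.0944) and RFC5 (0.13, adjusted p = 0.113) were not called. After the same step 21 were lower and 1 was higher in OHT against Ctrl, where 13.6% of all genes were lower and 13.1% higher. In OHT_Dox against Dox 19 were lower and 1, ORC4, was higher, where 13.6% of all genes were lower and 13.3% higher. These were not all the same genes: 15 of the 19 were still called, CDC7, PRIM1, POLE2 and RFC1 were lost, and MCM3, CDC45, LIG1 and TIMELESS were added.

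The call of RFC5 in Dox against Ctrl was lost in 15 of 23 alternatives, with edgeR (adjusted p = 0.15) and DESeq2 (adjusted p = 0.0873) among them. The count of 4 was 0 without Dox replicate 2 and without Ctrl replicate 3, 1 without Ctrl replicate 2, 2 without Dox replicate 1 or Dox replicate 3, and 8 without Ctrl replicate 1. DESeq2 called 2 higher and 4 lower, of which MCM5, POLD2 and FEN1 were not called by limma, where it called 4.94% of all genes higher and 6.27% lower. The 8 mesenchymal markers summed to 4010 to 4240 CPM in the Dox libraries, against 5072 to 5428 CPM in the Ctrl libraries, and the 4 epithelial markers to 919.6 to 941 CPM in Dox, against 1321 to 1448 CPM in Ctrl, without overlap in either list. Most of the mesenchymal sum was VIM (2359 CPM in Dox against 2903 CPM in Ctrl), COL1A1 (563 against 924 CPM) and FN1 (539 against 661 CPM). PRRX1 (71.6 against 66.5 CPM) and YAP1 (108 against 90.3 CPM) averaged higher in Dox. The part of these markers in this result was not tested.

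**Figure D4:**
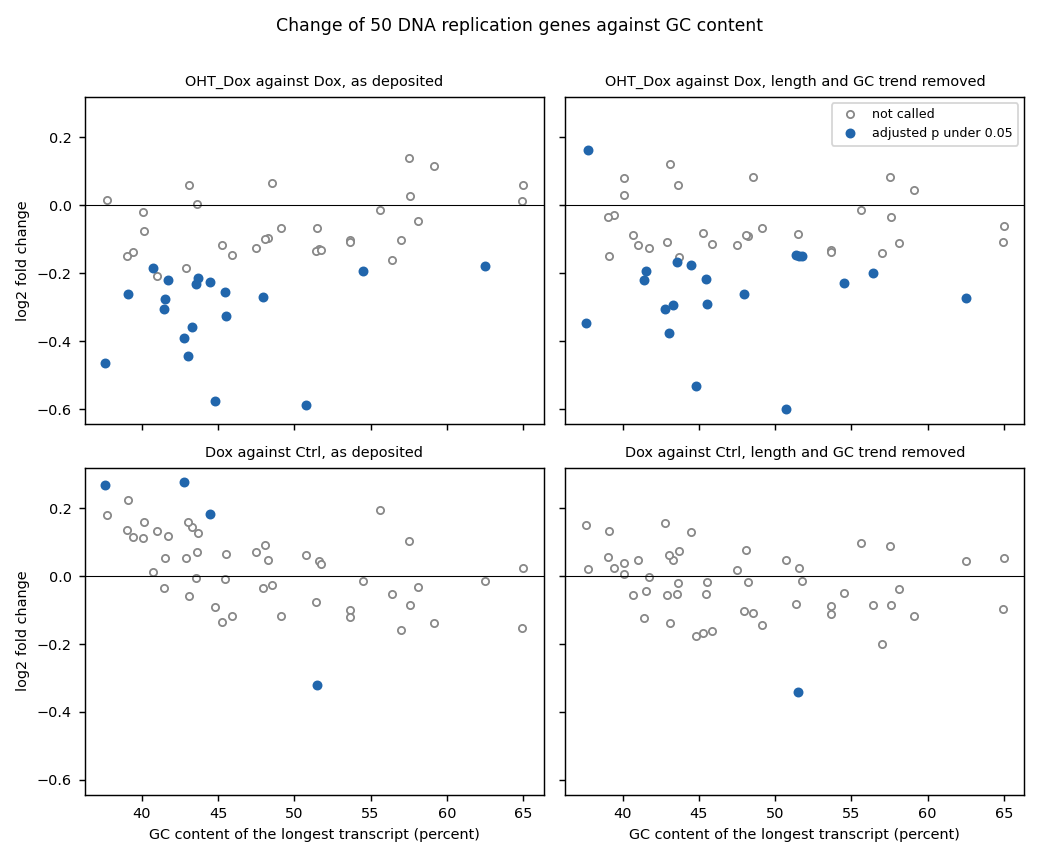
Log2 fold change of the 50 genes (vertical axis) against the GC percent of their longest transcript in OHT_Dox against Dox (top) and Dox against Ctrl (bottom), as deposited (left) and with the length and GC trend of each library removed (right); filled points passed an adjusted p of 0.05. In Dox against Ctrl the points as deposited fall with GC (Spearman -0.6), and the coefficient is -0.292 with the trend removed, where 1 filled point is left.

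With OHT present, no replication gene passed the threshold when the hairpin was induced. In OHT_Dox against OHT 0 of 50 were called by limma, edgeR and DESeq2, where limma called 0.509% of all genes higher and 1.59% lower, and 3 of the 50 had an unadjusted p under 0.05 by limma. The smallest adjusted p was that of MCM6, which had 179, 188 and 181 CPM in OHT_Dox, against 198, 210.5 and 199.7 CPM in OHT (-0.15 ± 0.05, adjusted p = 0.166). The median log2 fold change of the 50 was 0.00 (all genes 0.02). E2F2 had 50.5 ± 3.71 CPM in OHT_Dox and 45.0 ± 1.96 CPM in OHT (0.16 ± 0.07, adjusted p = 0.333).

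Whether the response to OHT differed with the hairpin was tested as the interaction, the change in OHT_Dox against Dox minus that in OHT against Ctrl. It called 0 of 50 by limma, edgeR and DESeq2, and limma called 0 of all genes (0%), with 5 of the 50 at an unadjusted p under 0.05. The smallest adjusted p was that of TOPBP1 (-0.31 ± 0.09, adjusted p = 0.221), which was called without Ctrl replicate 1 (-0.38, adjusted p = 0.0267). DNA2 stood at -0.26 ± 0.09, adjusted p = 0.222 and RNASEH2A at 0.25 ± 0.11, adjusted p = 0.285. Over the 50 genes the interaction had a Spearman correlation with GC percent of 0.736, and of 0.306 after the length and GC trend was removed. A gene called in 1 of the OHT comparisons only is thus not shown to respond otherwise with the hairpin.

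Other genes of the replication fork and of chromatin assembly, 33 in number, also fell more often than they rose. In OHT against Ctrl 12 were lower (36.4%) and 3 higher (9.09%), where 8.79% of all genes were lower and 12.6% higher. In OHT_Dox against Dox 15 were lower (45.5%) and 3 higher (9.09%), where 14.5% of all genes were lower and 11.5% higher. The counts of higher genes thus lie near those of all genes. ASF1B, a histone chaperone, had 64.3 CPM in OHT and 87.4 CPM in Ctrl (-0.44 ± 0.06, adjusted p = 2.19e-05), and 66.9 CPM in OHT_Dox and 88.4 CPM in Dox (-0.40 ± 0.06, adjusted p = 5.46e-05). CHAF1B, of the assembly factor CAF-1, changed by -0.31 ± 0.06 in OHT against Ctrl and -0.32 ± 0.06 in OHT_Dox against Dox, and ESCO2, which acetylates cohesin in S phase, by -0.32 ± 0.07 and -0.38 ± 0.07, all called. The 3 that rose were the same in both: MCMBP, which binds MCM subunits (0.35 ± 0.06 and 0.32 ± 0.06), TIPIN, the partner of TIMELESS (0.30 ± 0.07 and 0.43 ± 0.07), and POLE3, a histone-fold subunit of polymerase epsilon (0.20 ± 0.05 and 0.19 ± 0.05).

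The E2F family and the pocket proteins that hold it in check were split. Of 11 genes 4 were higher (36.4%) and 1 lower (9.09%) in OHT against Ctrl, where 12.6% of all genes were higher and 8.79% lower. In OHT_Dox against Dox 2 were higher (18.2%) and 4 lower (36.4%), where 11.5% of all genes were higher and 14.5% lower. E2F8, a repressing E2F, had 23.2 CPM in OHT and 39.0 CPM in Ctrl (-0.74 ± 0.07, adjusted p = 4.34e-07), and 26.0 CPM in OHT_Dox and 44.3 CPM in Dox (-0.76 ± 0.07, adjusted p = 3.17e-07). E2F5, also a repressing form, rose, with 92.0 CPM in OHT and 63.7 CPM in Ctrl (0.53 ± 0.05, adjusted p = 5.43e-07), and 96.3 CPM in OHT_Dox and 70.8 CPM in Dox (0.44 ± 0.05, adjusted p = 5.04e-06). RB1, the retinoblastoma protein gene, had 42.8 CPM in OHT_Dox and 56.9 CPM in Dox (-0.41 ± 0.07, adjusted p = 0.000343), and 48.1 CPM in OHT and 46.8 CPM in Ctrl (0.04 ± 0.07, adjusted p = 0.73). It was higher in Dox than in Ctrl (0.28 ± 0.07, adjusted p = 0.0253), a comparison that shares the Dox libraries.

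Genes that control CDT1 and licensing through ubiquitin ligases and cyclin-dependent kinases were also followed, with 14 tested. In OHT against Ctrl 6 were lower and 2 higher, where 8.79% of all genes were lower and 12.6% higher. In OHT_Dox against Dox 7 were lower and 2 higher, where 14.5% of all genes were lower and 11.5% higher. In each comparison the 2 higher genes were 14.3% of those tested, near the share of all genes. CDK2, the kinase of S phase entry, had 75.5 CPM in OHT and 101 CPM in Ctrl (-0.42 ± 0.05, adjusted p = 3.27e-06), and 79.2 CPM in OHT_Dox and 110.2 CPM in Dox (-0.47 ± 0.05, adjusted p = 7.52e-07). Its cyclins moved in opposite directions: CCNE1 was higher in both (0.28 ± 0.07 and 0.33 ± 0.07) and CCNE2 lower in both (-0.25 ± 0.06 and -0.56 ± 0.06). CUL4A, the scaffold of the ligase that degrades CDT1, was higher in both (0.36 ± 0.05 and 0.17 ± 0.05), and DTL, its substrate receptor, lower in both (-0.26 ± 0.06 and -0.34 ± 0.06). CDC25A, the phosphatase that activates CDK2, was the gene of these lists called in OHT_Dox against OHT, with 76.4, 78.0 and 72.1 CPM in OHT_Dox, against 59.1, 62.0 and 62.4 CPM in OHT (0.30 ± 0.06, adjusted p = 0.00402).

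Of 8 genes that supply nucleotides for S phase, 2 were lower in OHT against Ctrl (25.0%, all genes 8.79%). In OHT_Dox against Dox 3 were lower (37.5%, all genes 14.5%). TK1, the thymidine kinase of S phase, was lower in OHT against Ctrl (-0.28 ± 0.07, adjusted p = 0.00566) and stood at -0.07 ± 0.07, adjusted p = 0.528 in OHT_Dox against Dox. DCK, a kinase of deoxynucleosides, and RRM1, the large subunit of ribonucleotide reductase, were lower in OHT_Dox against Dox (-0.38 ± 0.07 and -0.20 ± 0.05).

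Of 12 mitotic genes, 8 were lower in OHT against Ctrl (66.7%, all genes 8.79%) and 7 in OHT_Dox against Dox (58.3%, all genes 14.5%). KIF11, a spindle motor, stood at -0.31 ± 0.07 and -0.52 ± 0.07, and TOP2A, which untangles chromosomes, at -0.29 ± 0.06 and -0.42 ± 0.06. CDK1, the kinase that starts mitosis, stood at -0.34 ± 0.07 and -0.40 ± 0.07, and CCNB2, 1 of its cyclins, at -0.29 ± 0.06 and -0.24 ± 0.06, all called. Lower values in OHT libraries were thus found in mitotic genes as well as in replication genes, and a difference in the share of cells in each phase was not tested.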

How the data were processed

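Poly(A) RNA from 12 SHEP libraries, 3 in each of 4 groups, was sequenced from strand-specific libraries, per the labels' protocols. The deposited values are CPM per gene. The submitters' processing notes list, with no role given, STAR, Bowtie, Bowtie2, featureCounts, FastQC and DRAGEN, and as builds mm10 and hg19, and which tool made the CPM values, its version, the annotation and the strand setting are not given in the sources used here. All deposited CPM values were whole multiples of 1 read within 0.01 reads, so whole read counts were recovered.

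Genes with at least 0.5 CPM in at least 3 libraries (18674) were fitted as log2(CPM + 0.5) with limma 3.58.1 (R 4.3.3), with 1 mean per group over all 12 libraries, and two-sided p-values were adjusted (Benjamini-Hochberg) across the whole table in each contrast, with a call at an adjusted p under 0.05. The pseudocount understates changes of low genes. TMM scaling, edgeR 4.0.16 and DESeq2 1.42.0 on the recovered read counts, other pseudocounts (1 and 0.1), no filter, fits of only the groups compared, a replicate block, removal of length and GC trends, and fits without each library in turn were alternatives. The fit was also run on simulated counts with the same spread for all genes and no length or GC trend. That run cannot tell how the fit behaves under the trends described above. Exon length, GC and overlapping genes came from GENCODE release 29 (28572 of 28576 identifiers matched), and promoters from RefSeq (GRCh38.p14). Values in the text are mean ± SD (n = 3) for levels and log2 fold change ± SE for changes.

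The genes and lists were chosen with earlier results of these data known, so they are no independent evidence of direction. Values in every library are given for up to 4 called members of a step by smallest adjusted p, and for the member with the smallest adjusted p in a step with no call, and of each other list 2 to 4 genes with the smallest p in a contrast are named. POLE3 and CCNE1 fall outside that rule and were chosen after their values were seen.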

Additional observations from a re-analysis of the deposited data

How the results depend on the processing

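The number of replication genes called in OHT against Ctrl was 22, fell to 14 when only the 6 libraries compared were fitted, and lay between 14 and 22 when each library was left out in turn. In OHT_Dox against Dox it was 19 and lay between 15 and 21 over the libraries left out, 14 without Dox replicate 1 and OHT_Dox replicate 3 together, and 23 with a replicate block. In Dox against Ctrl it was 4, and came to 8 with the replicate block (6 higher, 2 lower), 1 with the length and GC trend removed, 2 with the block and that removal together, and between 0 and 8 over the libraries left out. In Dox against Ctrl, TMM scaling and edgeR each called 2 higher and 1 lower, and DESeq2 2 higher and 4 lower. It was 0 in OHT_Dox against OHT in each alternative, and the interaction gave between 0 and 1 over the libraries left out. No gene reported singly reversed its direction among calls. Over the genes and comparisons reported singly, the 12 fits without a library lost 76 calls and added 18, edgeR lost 5, DESeq2 lost 4 and added 3, and the removal of the length and GC trend lost 7 and added 6. Deviations of same-numbered libraries correlated between -0.3 and 0.554 over 18 pairs (13073 genes), so not every pair was above 0.1 and the numbers were not taken to pair the libraries. As a hint from the data, 9 of 12 libraries correlated best with their own number. The replicate block added 10 calls and lost 0, and among replication genes it called RPA3 in OHT against Ctrl (-0.21, adjusted p = 0.0218), MCM3 (adjusted p = 0.0414), LIG1 (adjusted p = 0.0363), ORC5 (adjusted p = 0.0348) and POLA1 (adjusted p = 0.0227) in OHT_Dox against Dox, and CDC7, ORC4 and POLE as higher and MCM5 as lower in Dox against Ctrl (adjusted p between 0.033 and 0.0479). The depth of 44466458 or more reads left at least 1157 reads per replication gene. The causes of these shifts were not tested.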
